A study of Homo sapiens with 2 samples.

Results

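The mismatch repair genes MSH6, MSH3, PMS2, PMS1, MLH3 and EXO1 were followed in HCT116, a human colorectal carcinoma cell line, on arrays of cells with a SUN2 knockdown and of scrambled control cells. Members were chosen by name, as all probe sets that the platform annotation assigns to 1 of these 6 genes alone. This gave 17 probe sets out of 44988 with 1 gene symbol, and 6 genes out of 18132. MSH6 was measured by 2 probe sets, MSH3 by 2, PMS2 by 1, PMS1 by 7, MLH3 by 4 and EXO1 by 1. The knockdown group (hairpin shSUN2-1) held 1 array and the control group (Scr) held 1 array. Both groups were HCT116 cells grown in DMEM with serum, and each array measured bulk RNA. With 1 hairpin and 1 array per group, no test of any difference exists, and an effect of the hairpin cannot be told apart from a difference between the cultures.

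Mismatch repair corrects base mismatches and small loops that DNA polymerase leaves behind. MutS homologs recognise the error as heterodimers: the MSH6 complex binds mismatched bases and the smallest loops, and the MSH3 complex binds larger loops. MutL homologs then act on the DNA: PMS2 carries the endonuclease that nicks the new strand, MLH3 is best known for its part in meiotic crossing over, and the role of PMS1 in repair is less clear. EXO1 is the exonuclease that removes the nicked strand, after which the clamp PCNA, its loader replication factor C, the single-strand binding protein RPA, DNA polymerase delta and DNA ligase LIG1 restore the duplex. HCT116 is a line with deficient mismatch repair and unstable microsatellites, and it is known to carry a frameshift in MSH3. The dimer partners shared by these proteins were not analysed here.

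Intensities were deposited per probe set on a linear scale. Every difference given is in log2(intensity + 16) and is positive where the knockdown array was higher. A probe set counted as past the filter when its mean reached the median of all probe sets, an intensity of about 108. Background was still in these values. The array carries 23 background controls, probe sets with no human target that differ in their G and C content. They read 31.4 to 1128 in the knockdown array and 31.2 to 1425 in the control array, and 20 of them were lower in the knockdown array. The only measure of error was the scatter of probe sets around the mean difference of their gene, with an SD of 0.09 for probe sets past the filter (5786 genes) and 0.06 for those below it (5641 genes). It says nothing of the variation between cultures. The targeted gene SUN2 was lower on 6 of its 6 probe sets, by between -0.39 and -0.05, with 407.3 in the knockdown array and 497.7 in the control array on the brightest.

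None of the 17 mismatch repair probe sets differed by 1.2-fold between the arrays. Their differences ran from -0.06 to 0.20, with a median of 0.019, and 10 were higher and 7 lower in the knockdown array. PMS1 and EXO1 had the largest differences of the brightest probe sets, both higher, and MLH3 was slightly lower on all of its probe sets. Of the MLH3 probe sets only 1 was past the filter, and 33.6% of all dim probe sets were higher. Of the 5 probe sets past the filter, 0 were at least 1.2-fold higher and 0 at least 1.2-fold lower, where 6.21% and 0.809% of all such probe sets were. Of the 12 below it, 0 were past 1.2-fold in either direction, where 0.394% of all dim probe sets were higher and 0.0581% lower by that much. Few probe sets of any gene reached 1.2-fold, so these counts lie near the background. In bulk RNA, fewer cells that use a gene and less RNA per cell cannot be told apart.

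**Figure D1:**
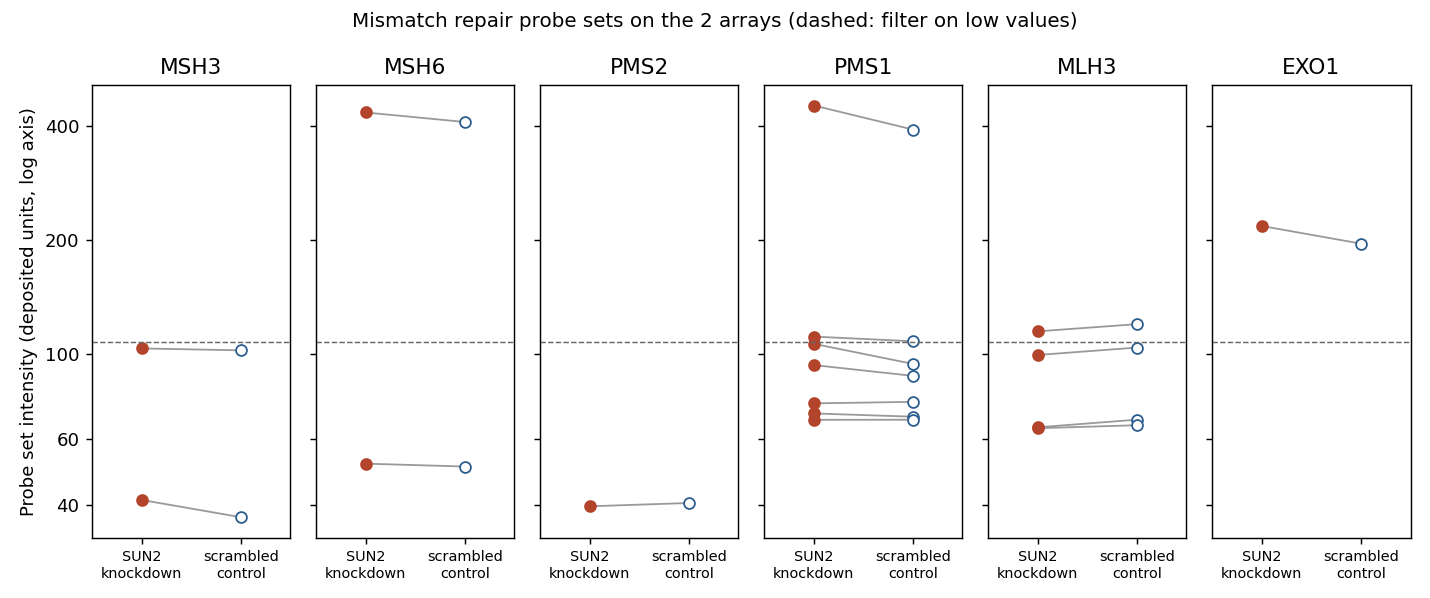
Intensity of each mismatch repair probe set (log axis, deposited units) in the SUN2 knockdown array (filled) and the scrambled control array (open), with a line joining the same probe set and a dashed line at the filter of about 108. The brightest probe sets of MSH6, PMS1 and EXO1 lie well above the filter, MLH3 lies around it, and MSH3 and PMS2 lie below it.

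Promoter windows, from 250 bases before the start to 50 after it, were read from RefSeq for all 6 members, and 3 are shown: PMS1, for the region it shares with the divergent gene ORMDL1, and EXO1 and MSH3, for their E2F-type letters. Capitals mark TTTCGCGC or TTTGGCGC (E2F type), CCAAT (the CCAAT box) and GGGCGG (the GC box), searched on both strands, so that GCGCGAAA, ATTGG and CCGCCC are the same motifs on the other strand. The windows are on the plus strand of GRCh38.p14 at chr2:189784200-189784499 for PMS1, chr1:241847954-241848253 for EXO1 and chr5:80654402-80654701 for MSH3, and each is read 5′ to 3′.
PMS1: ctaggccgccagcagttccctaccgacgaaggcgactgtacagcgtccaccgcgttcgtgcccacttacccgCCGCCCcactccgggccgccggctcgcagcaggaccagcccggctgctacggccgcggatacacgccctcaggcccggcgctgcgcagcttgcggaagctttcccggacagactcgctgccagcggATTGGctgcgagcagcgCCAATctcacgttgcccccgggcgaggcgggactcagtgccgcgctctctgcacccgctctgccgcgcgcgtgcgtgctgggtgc
EXO1: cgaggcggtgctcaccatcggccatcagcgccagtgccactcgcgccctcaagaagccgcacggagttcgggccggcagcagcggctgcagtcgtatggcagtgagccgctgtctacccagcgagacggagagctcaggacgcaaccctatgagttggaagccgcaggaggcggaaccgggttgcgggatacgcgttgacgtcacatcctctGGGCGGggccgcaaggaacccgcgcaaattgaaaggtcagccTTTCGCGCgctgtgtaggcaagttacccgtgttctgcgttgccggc
MSH3: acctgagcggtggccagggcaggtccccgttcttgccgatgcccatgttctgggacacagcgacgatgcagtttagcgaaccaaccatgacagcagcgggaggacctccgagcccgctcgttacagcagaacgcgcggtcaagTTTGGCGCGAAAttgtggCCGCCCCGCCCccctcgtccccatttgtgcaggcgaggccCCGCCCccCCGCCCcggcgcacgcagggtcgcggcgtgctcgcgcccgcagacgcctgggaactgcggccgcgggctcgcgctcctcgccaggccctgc

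The PMS1 window held 2 CCAAT boxes, 1 on each strand, and 1 GC box. The EXO1 window held TTTCGCGC and 1 GC box. The MSH3 window held TTTGGCGC and, on the other strand, TTTCGCGC, which overlap on the letters GCGC, and 4 GC boxes, of which the first 2 overlap by 1 base. MSH6 had 5 GC boxes and 1 CCAAT box, PMS2 had 2 GC boxes and 3 CCAAT boxes, and MLH3 had none of these letters in its window. TATAAA (the TATA box) was also searched and was in none of the 6 windows. Among 35116 RefSeq windows of the same length, several per gene in part, TTTCGCGC occurred in 0.515%, TTTGGCGC in 0.652%, CCAAT in 34.6%, GGGCGG in 45% and TATAAA in 11.5%. A match of letters is a description and was not tied to binding of any factor.

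MSH6, which contacts the mismatched base, was measured well above the filter. Its brightest probe set, 11755368_a_at, read 434.5 in the knockdown array and 410.1 in the control array. The difference was 0.08, or 1.06-fold, which is 0.85 times the scatter SD. That SD is a spread between probe sets of a gene, so it does not show whether the 2 arrays differed. The MSH6 difference came to 0.014 after quantile normalization and 0.025 after loess. The second probe set, 11749000_a_at, read 51.5 in the knockdown array and 50.6 in the control array, a difference of 0.019, and was below the filter.

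MSH3, the loop-binding MutS homolog, had no probe set past the filter. The brighter one, 11731032_at, read 103.7 in the knockdown array and 102.6 in the control array, a difference of 0.014. The dimmer one, 11731033_at, read 41.3 in the knockdown array and 37.2 in the control array. Its difference of 0.11 was 1.77 times the scatter SD for dim probe sets, but it amounts to 4.11 intensity units, and the size of the log2 value depended on the treatment of background (0.29 with normexp correction, which is past 1.2-fold, and 0.06 with a pseudocount of 64).

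PMS2, the endonuclease subunit, was measured on a dim probe set alone. The 1 probe set with a single symbol, 11761599_x_at, read 39.8 in the knockdown array and 40.6 in the control array, a difference of -0.021. PMS2 has several near-identical pseudogenes, and the _x_at class marks probe sets that the array design lists as cross-hybridising, so the assignment to PMS2 is uncertain. The copies with probe sets of their own, looked up after the annotation was seen, differed in both directions. PMS2CL read 137.0 in the knockdown array and 157.6 in the control array (-0.18). PMS2P5 read 118.6 in the knockdown array and 111.8 in the control array (0.08). PMS2P9, below the filter, read 95.1 in the knockdown array and 98.03 in the control array (-0.04). A further 2 probe sets list PMS2 together with PMS2CL and name no gene.

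PMS1, the MutL homolog without the endonuclease of PMS2, had the largest difference of the members on the brightest probe sets as deposited. EXO1 was larger after loess, at 0.153 against 0.147 for PMS1, and with the probe sets of each gene averaged, at 0.14 against 0.0689. Its brightest probe set, 11721699_a_at, read 453.3 in the knockdown array and 391.7 in the control array. The difference was 0.20, or 1.15-fold, which is 2.15 times the scatter SD, and 1380 of the 12220 genes past the filter had a higher difference. The other probe sets gave smaller values. 11748262_a_at read 106.7 in the knockdown array and 94.4 in the control array (0.15), and 11763518_x_at read 93.8 in the knockdown array and 87.8 in the control array (0.08). 11762952_x_at, just past the filter, read 111.5 in the knockdown array and 108.3 in the control array (0.036). The knockdown array stood at 99.1%, 102.0% and 99.9% of the control array on the 3 dimmest probe sets, 11761201_x_at, 11748651_a_at and 11748652_x_at, with differences between -0.011 and 0.023. PMS1 was higher on 5 of 7 probe sets, beside 51% of all probe sets past the filter and 33.6% of those below it. It was higher by more than 1 scatter SD on 3 of them, and the mean over all 7 was 0.0689. The PMS1 probe sets of the _x_at class carry the same limit of cross-hybridisation as the PMS2 probe set. How many probe sets of other genes exceed 1 scatter SD was not computed. The sign was not settled for 11761201_x_at and 11748652_x_at, which were higher under 3 and 4 of 6 other scalings or pseudocounts.

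MLH3 was lower in the knockdown array on 4 of 4 probe sets, by amounts within the scatter. Of all dim probe sets 33.6% were higher, with a median difference of -0.026, and of those past the filter 51% were higher. The 4 readings come from the same 2 arrays and are not replicates. The brightest, 11739745_a_at and the only one past the filter, read 115.1 in the knockdown array and 120.2 in the control array (-0.06, or 0.58 times the scatter SD). 11749797_x_at read 99.7 in the knockdown array and 104.3 in the control array (-0.06), and 11728837_a_at read 64.3 in the knockdown array and 67.3 in the control array (-0.05). The dimmest, 11761680_at, read 63.9 in the knockdown array and 65.1 in the control array (-0.021), and was higher under 2 of 6 other scalings or pseudocounts. The 3 background controls within 10% of the MLH3 range in the control array, with 14 to 16 G or C bases, were also lower, by -0.06 to -0.04. The MLH3 differences lay within the range of these controls except for the dimmest probe set, which at -0.021 was closer to no difference. The part of background in the MLH3 differences was not tested.

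EXO1, the exonuclease, had 1 probe set, 11721209_a_at, well past the filter. It read 218.1 in the knockdown array and 196.0 in the control array. The difference was 0.14, or 1.10-fold, which is 1.52 times the scatter SD, and 2359 of the 12220 genes past the filter had a higher difference. With a single probe set, EXO1 has no second reading within the array. The background control with 19 G or C bases read 222.4 in the knockdown array and 235.9 in the control array. Being past the filter therefore does not show that a reading is free of background, and the part of background in EXO1 was not tested. Of the 2 members with E2F-type letters in the windows printed above, EXO1 differed by 0.14 and MSH3 by 0.014 on the brightest probe set.

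**Figure D2:**
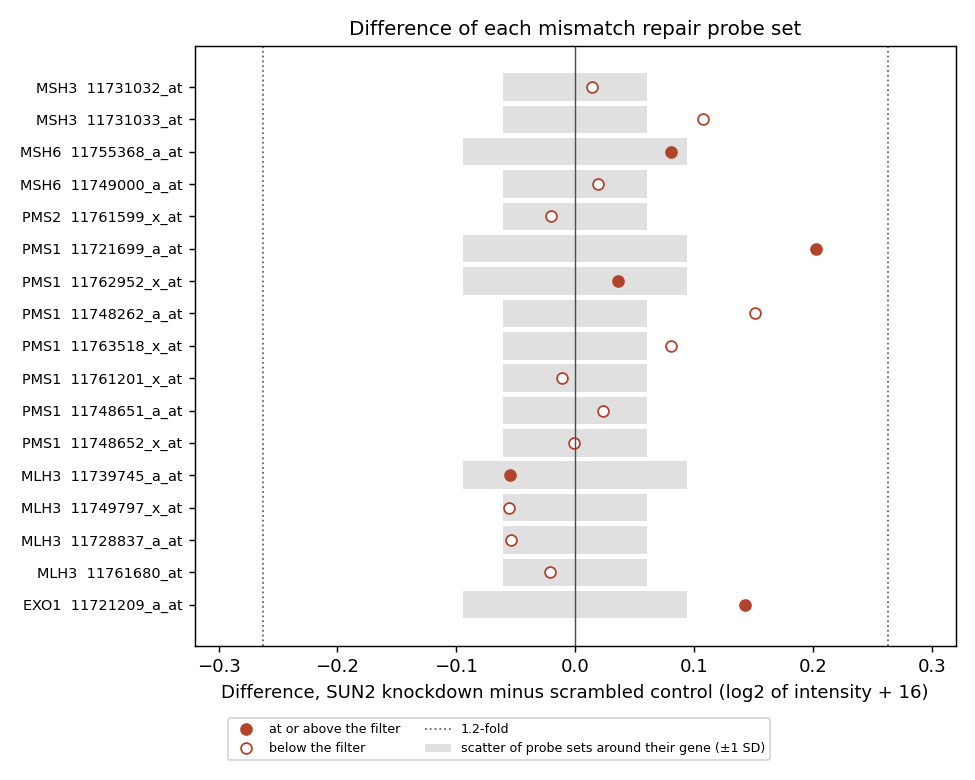
Difference of each mismatch repair probe set, SUN2 knockdown minus scrambled control in log2(intensity + 16), filled where the probe set was past the filter and open where it was below it. Grey bars show ±1 SD of the scatter of probe sets around their gene (0.09 past the filter and 0.06 below it), and dotted lines mark 1.2-fold. In all, 5 of 17 points lie outside their bar, all of them higher, and none reaches 1.2-fold. The share of all probe sets outside such a bar was not computed, so this count has no background beside it.

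Bright member probe sets were mostly higher, and dim ones were split. Past the filter, 4 of 5 probe sets were higher, where 51% of all probe sets past the filter were, and 2 of these 5 are of PMS1. Below it, 6 of 12 were higher and 6 lower, where 33.6% of all dim probe sets were higher and the median difference of dim probe sets was -0.026. The split is not settled, as the lower 11761201_x_at, 11748652_x_at and 11761680_at changed sign under some other scalings or pseudocounts. By gene, 3 of the 4 members past the filter were higher, beside 49.8% of all genes past it, with a median of 0.11 beside -0.0009 for all genes. The members' median came to 0.06 with probe sets of a gene averaged and to 0.07 after quantile normalization. Over the brightest probe sets of all 6 members, 4 were higher and the median was 0.05. These are counts over few genes, and 0 of the 4 genes reached 1.2-fold in either direction, beside 5.95% of genes at least 1.2-fold higher and 0.884% at least 1.2-fold lower. These shares were 727 and 108 genes, against 375 and 242 after quantile normalization. Higher genes outnumbered lower ones in both, by a smaller margin after quantile normalization.

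**Figure D3:**
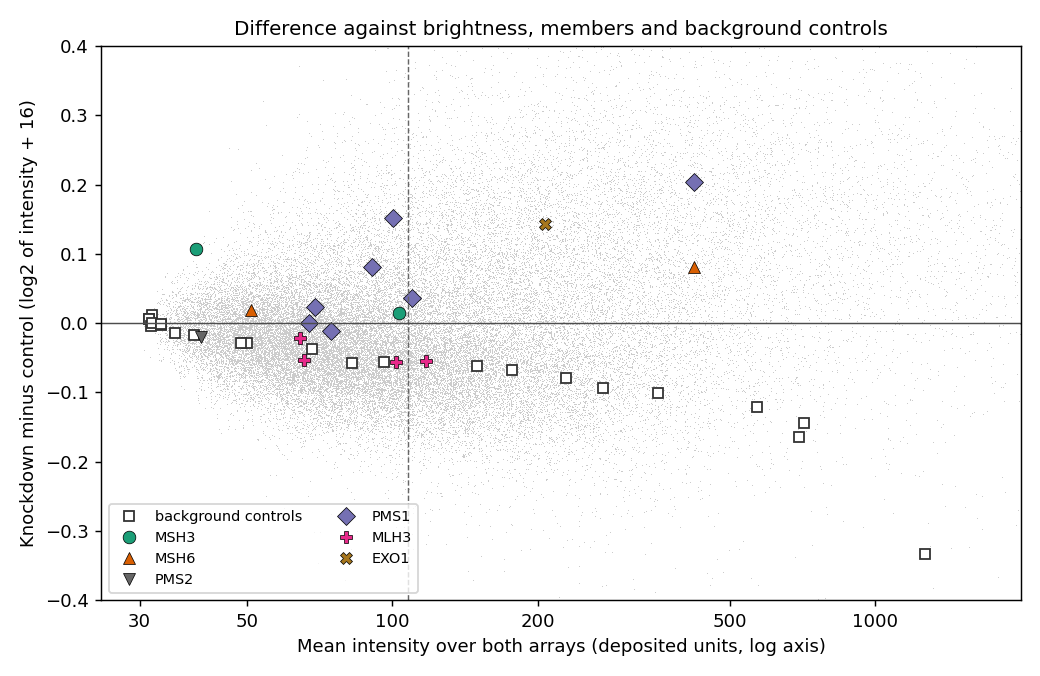
Difference between the arrays (log2 of intensity + 16) against mean intensity (log axis) for the 6 members, the 23 background controls (squares) and all probe sets with 1 symbol (grey dots). The brighter background controls lie further below 0, down to -0.33 at 25 G or C bases. The 4 MLH3 points lie beside them, and the 6 dimmer PMS1 points, of similar brightness to MLH3, run from -0.011 to 0.15. EXO1 and the brightest probe sets of PMS1 and MSH6 lie above 0 at higher intensity.

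The downstream part of the pathway was split in direction. All 15 listed genes passed the filter, and 8 were higher and 7 lower in the knockdown array. This lies near the share of all genes past the filter, of which 49.8% were higher. The counts for single complexes below stand beside the same 49.8%. The median of the 15 genes was 0.07. The median turned to -0.0060 after quantile normalization and to -0.0004 without the _x_at and _s_at classes. None of the 15 genes reached 1.2-fold on its brightest probe set. Among the 5 subunits of replication factor C, which loads the clamp, 4 were higher, from 0.09 to 0.18, and RFC1 stood at -0.019, and at 0.0003 after median centring. The largest of these was RFC2, with 319.8 in the knockdown array and 279.9 in the control array (0.18), on 1 probe set of the _x_at class. RFC4 read 759.8 in the knockdown array and 684.1 in the control array (0.15), but the mean over its 3 probe sets was 0.0050, and that over the 4 RFC3 probe sets was 0.0036. After quantile normalization RFC3, RFC4 and RFC5 came to 0.05, 0.04 and 0.04. The clamp gene PCNA stood at 0.13 on its 1 probe set past the filter, but at 0.028 after quantile normalization and 0.027 after loess, and its other probe set at -0.029.

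RPA subunits, which coat the exposed strand, went in both directions. RPA1 read 914.8 in the knockdown array and 1050.8 in the control array (-0.20), and its second probe set differed by -0.15. After quantile normalization RPA1 came to -0.33 and RPA3 to -0.17. As deposited RPA3 stood at -0.05 and RPA2 at 0.11, which turned to -0.0060 after quantile normalization. Of the 4 subunits of DNA polymerase delta, 3 were lower and POLD3 was higher on the brightest probe sets, all between -0.05 and 0.07. POLD2 came to -0.16 and POLD4 to -0.12 after quantile normalization, and the mean over 3 probe sets of POLD3 was -0.04. LIG1, the ligase, named after its values were seen, was lower on 6 of 6 probe sets, by -0.18 to -0.07. HMGB1, a chromatin protein that assists mismatch repair in reconstituted reactions, had the largest positive difference of this list. It read 3184 in the knockdown array and 2712 in the control array (0.23), with 7 probe sets from -0.0088 to 0.34, and the brightest came to 0.13 after quantile normalization.

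Of 7 listed genes that work beside mismatch repair 6 were measured. Of the 5 past the filter 4 were higher, by 0.10 to 0.23, beside 49.8% of all genes, and the median of the 5 was 0.12. WRN, the helicase on which cells with unstable microsatellites depend, read 123.4 in the knockdown array and 102.8 in the control array (0.23) on 1 probe set close to the filter. SETD2, which places the histone mark that MSH6 binds, read 309.9 in the knockdown array and 271.2 in the control array (0.18), and its other probe set past the filter differed by 0.15. FAN1, a nuclease that binds MutL proteins, stood at 0.12, and MCM8, a helicase of the MCM family, at 0.10, with a mean of 0.03 over its 5 probe sets. The meiotic MutS homolog MSH4 was below the filter at 55.8 in the knockdown array and 58.04 in the control array.

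**Figure D4:**
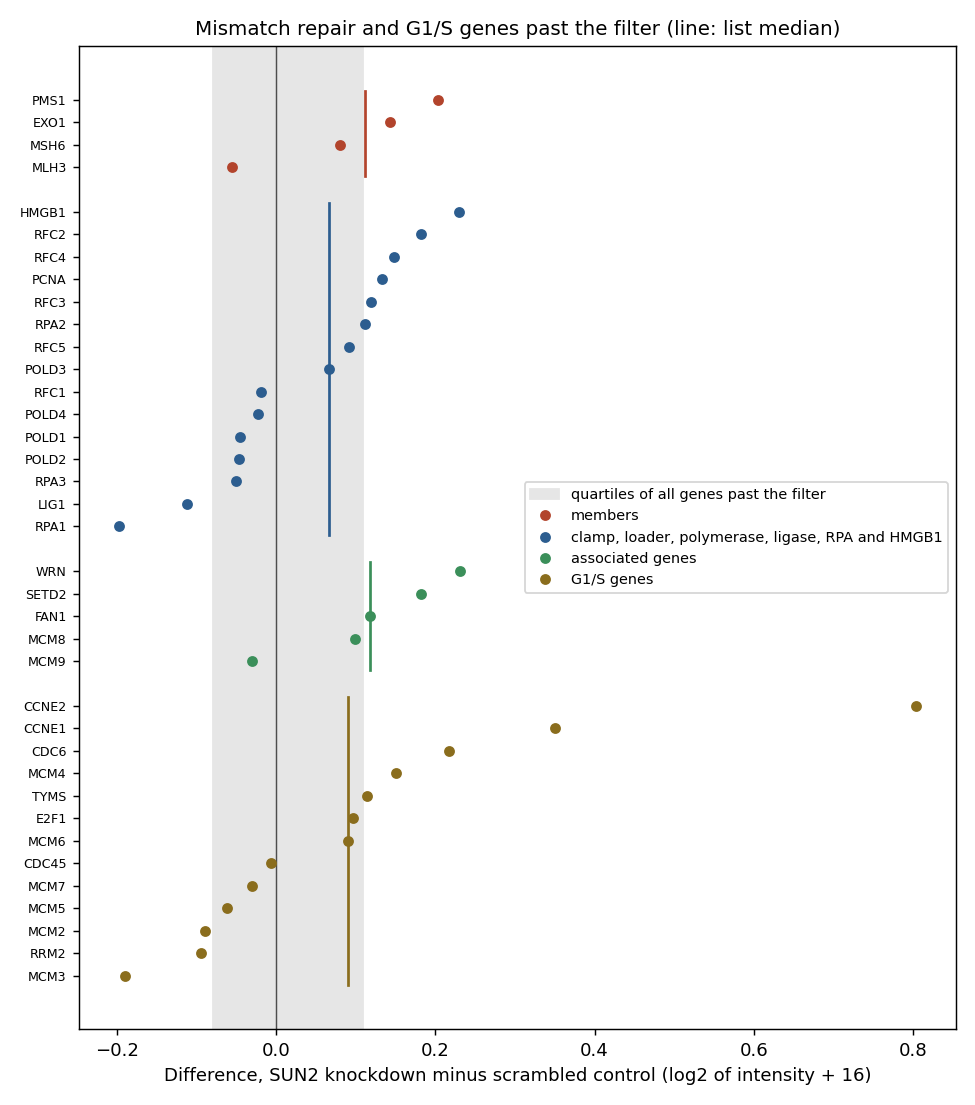
Difference between the arrays, SUN2 knockdown minus scrambled control (log2 of intensity + 16), for the members, the downstream pathway genes, the associated genes and the G1/S genes past the filter, with a vertical line at each list's median and a grey band for the quartiles of all genes past the filter (-0.08 and 0.11). PMS1 and EXO1 lie above the band and MSH6 and MLH3 within it, and CCNE2 at 0.80 is the point farthest to the right.

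EXO1 and several replication genes are transcribed around the G1/S transition, so 13 other G1/S genes were set beside them. Of these, 7 were higher and 6 lower on the brightest probe sets, with a median of 0.09, beside 49.8% of all genes higher. At least 1.2-fold higher were 2, beside 5.95% of all genes. All 13 stood lower after quantile normalization, where MCM4 came from 0.15 to 0.03 and TYMS from 0.11 to 0.0084. RRM2 stood at -0.09 on its brightest probe set and 0.21 on the other, with a mean of 0.06. MCM4, TYMS and RRM2 were named after their values were seen. CCNE2, a cyclin that drives entry into S phase, read 333.7 in the knockdown array and 184.4 in the control array (0.80, 1.74-fold), while its second probe set, below the filter, differed by 0.03. CCNE1 read 484.2 in the knockdown array and 376.3 in the control array (0.35), with its second probe set at 0.08. The replication licensing factor CDC6 stood at 0.22 and -0.04 on its 2 probe sets, and the brighter came to 0.11 after quantile normalization. Of the 6 MCM2 to MCM7 helicase subunits 2 were higher and 4 lower on the brightest probe sets. MCM3 stood at -0.19 there, but its 4 probe sets reached 0.08, and the mean over the 4 MCM7 probe sets was 0.05 against -0.03 on the brightest. The part of the cell cycle in the EXO1 difference was not tested.

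PMS1 shares its start region, the PMS1 window printed above, with ORMDL1, a regulator of sphingolipid synthesis that is transcribed in the opposite direction. In the RefSeq annotation of GRCh38.p14 the 2 starts lie 111 bases apart. ORMDL1 read 320.3 in the knockdown array and 272.5 in the control array on its brighter probe set (0.22, 1.17-fold). Its second probe set, below the filter, read 103.4 in the knockdown array and 91.1 in the control array (0.16). Both neighbours were thus higher by about the same amount, 0.20 for PMS1 and 0.22 for ORMDL1, on their brightest probe sets. The mean over the 7 PMS1 probe sets was smaller, at 0.0689. On the brightest probe sets, 1380 genes past the filter had a higher difference than PMS1. A link between the 2 genes was not tested. PMS2 has the divergent neighbour AIMP2, whose start lies 166 bases away and which was not analysed here.

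HCT116 is an epithelial line, and all 7 epithelial markers passed the filter. Of these 6 were higher, beside 49.8% of all genes past the filter, and CLDN3 was lower (-0.09). CLDN4 stood at 0.0024 and KRT19 at 0.22. The keratins KRT8 and KRT18 were past 1.2-fold on their brightest probe sets, at 0.34 and 0.32, beside 5.95% of all genes. These 2 probe sets were below 1.2-fold after quantile normalization (0.22 and 0.21) and after loess (0.24 and 0.21). The brightest KRT8 probe set was the lowest of 8 past the filter, which ran from 0.34 to 0.58 with a mean of 0.46 as deposited. The other KRT8 probe sets were not followed under other scalings. Markers of immune, fibroblast and endothelial cells were mostly dim, and the brightest was PECAM1, with 212.6 in the knockdown array and 224.1 in the control array. Of 10 with a probe set, 4 passed the filter, and all 4 were lower, by -0.12 to -0.07. Among all genes past it, 49.8% were higher. Background controls with 16 to 19 G or C bases, of similar brightness, were also lower, by -0.08 to -0.06. Summed intensities were 317 in the knockdown array and 339 in the control array for 3 immune markers. They were 269 and 272 for 4 fibroblast markers, and 405 and 432 for 3 endothelial markers. The part of these markers in the mismatch repair differences was not tested.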

How the data were processed

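Expression was measured on Affymetrix arrays from biotinylated cRNA in 2 samples of HCT116 cells, 1 per group. The authors deposited 1 intensity per probe set and array, on a linear scale. MAS5 and RMA appear in the submitters' processing notes without a stated role, and how the arrays were scaled is not stated there. Genes came from the platform annotation, with symbols updated through Entrez IDs in RefSeq of GRCh38.p14 (44961 of 44988 matched). The 102 control probe sets were kept apart. Probe sets with several symbols (1832) or none (2473) named no gene.

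Differences were taken in log2(intensity + 16), which understates changes of dim genes. The probe set with the highest mean stood for its gene. The filter kept genes whose mean reached the median of all probe sets, which left 12220 of 18132 genes, and 4 of the 6 members. No gene or list was tested, as each group held 1 array, and no likeness between genes could be measured. The number of arrays limits the precision. Probes shared within a gene would make the scatter too small. Detection calls and probe-level values were not used.

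The members and lists were chosen with earlier results of these data known. From each list other than the cell type markers, genes at least 1.2-fold different and the 4 with the largest difference were named. Divergent neighbours whose start lay within 1000 bases were named too. Only some of the cell type markers were named, and not by this rule. The alternatives were pseudocounts of 1 and 64, median centring, quantile normalization, loess (span 0.3), normexp (limma 3.58.1, R 4.3.3, offset 16), the mean of all probe sets, leaving out the _x_at and _s_at classes, no filter, and a filter at the 75th percentile. The gene steps, written in Python 3.11.15 with pandas 2.3.3 and statsmodels 0.14.6, were tested on simulated data.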

Additional observations from a re-analysis of the deposited data

Results flagged for a closer look

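The 2 probe sets listed under both PMS2 and its pseudogene PMS2CL lie outside the comparison and were higher in the knockdown array. 11743017_s_at read 165.2 in the knockdown array and 147.4 in the control array, a difference of 0.15. 11747521_s_at, below the filter, read 57.0 in the knockdown array and 52.9 in the control array, a difference of 0.083. PMS2CL on its own probe set (-0.18) went the other way. With 1 array per group these differences were not tested, and the transcript behind each probe set was not determined.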

How the results depend on the processing

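No paired analysis was possible because there is 1 array per group. For the same reason, none could be omitted. The differences of MSH6 (0.014 to 0.10), EXO1 (0.12 to 0.17), MLH3 (-0.07 to -0.024), MSH3 (0.010 to 0.06) and PMS2 (-0.028 to -0.0014) kept their sign and moved by less than the scatter SD under the alternatives that gave them a value. That SD, 0.09 for probe sets past the filter, is larger than the deposited differences of MSH6, MLH3, MSH3 and PMS2. A move below it therefore does not show that their size was stable. PMS1 kept its sign but came to 0.0689 with the mean of all probe sets. No member probe set past the filter reached 1.2-fold under any of the 9 alternatives run for probe sets. Below the filter, 1 did: the dimmer MSH3 probe set, at 0.29 with normexp. MSH3, MLH3 and PMS2 gave no value with the 75th percentile filter, and PMS2 none without the _x_at class.

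The background counts moved more. Genes at least 1.2-fold higher numbered 727, or 373 for the mean of all probe sets, 375 after quantile normalization and 475 after loess. Genes at least 1.2-fold lower numbered 108, and 242 after quantile normalization, 191 after loess, 179 with normexp, 47 with the mean of all probe sets, 59 with a pseudocount of 64 and 69 without the _x_at and _s_at classes. Genes at least 1.5-fold higher numbered 41, or 22 for the mean of all probe sets. Genes at least 1.5-fold lower numbered 3, and 11 after quantile normalization, 8 after loess and 7 with normexp. The cause of these shifts was not tested. The scaling between the arrays and the background left in dim probe sets limit every value for MSH3, PMS2 and MLH3. The part of background in the brighter members was not tested either.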
